A study of Mus musculus with 36 samples.

Results

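Imprinted genes that take part in growth, 10 of the 78239 genes counted, were chosen by name: H19, Igf2, Dlk1, Meg3, Peg3, Plagl1, Cdkn1c, Grb10, Mest and Ndn. Each symbol matched 1 gene identifier. Poly(A) RNA was sequenced from heart, kidney and liver of wild-type male C57BL/6NCrl mice, an inbred substrain, that were 8, 10 or 12 weeks old. Each of the 9 groups of tissue and age held 4 libraries, which the study calls biological replicates, for 36 libraries in all. No group carried an altered gene or a treatment. All mice had been bought as young animals, were housed in small groups on standard chow, and were anaesthetised with ketamine and xylazine before the organs were frozen. The comparisons between ages ask whether these genes still change while the mice pass from adolescence to adulthood, and those between tissues give the order of their levels.

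An imprinted gene is transcribed mainly or only from the copy inherited from the mother or only from the copy inherited from the father. The choice is set by methylation marks laid down in the germ line. Many imprinted genes act on growth before and shortly after birth and are turned down together in several organs as postnatal growth slows. In an inbred line the parental copies have the same sequence, so the counts below are totals over both copies, and whether a gene was still imprinted cannot be read from them.

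The 36 libraries held between 21031599 and 33637390 counted read pairs. Levels are given in CPM, a gene's count scaled to a library total of 1000000 counts, with library sizes adjusted by edgeR's TMM factors, and errors are SDs over libraries unless named otherwise. The 6 cardiomyocyte markers summed to at least 47660 CPM in every heart library and to at most 3.64 CPM in any kidney or liver library. Kidney tubule markers summed to at least 8741 CPM in kidney and hepatocyte markers to at least 94180 CPM in liver. The heart libraries of 10 weeks lay above those of 8 weeks in mesothelial markers, genes of the lining on the heart's surface. Their summed levels were 11.2 to 56.4 CPM against 7.59 to 9.47 CPM at 8 weeks, and 5 of the 6 genes passed the test. The hearts of 12 weeks, at 6.54 to 23.3 CPM, overlapped both ages. Hepatocyte markers summed to 0.329 to 24.1 CPM in the 10-week hearts. This range overlapped 0.11 to 0.481 CPM at 8 weeks and 0.344 to 3.975 CPM at 12 weeks. In whole organs, fewer cells of a type and less RNA per cell cannot be told apart.

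Control sequences of H19 and Peg3 are shown because imprinting of these genes is known to act through them, and were read from the GRCm39 genome. Upstream of H19 lies the control region it shares with Igf2, where the insulator protein CTCF binds the unmethylated maternal copy. The core of its known motif, with any base allowed at the sixth and the ninth letter, was searched on both strands in the 5000 bases upstream of the annotated start of H19. It had 3 matches, all on the minus strand, which is the strand of H19. They are printed with the core in capitals, at chr7:142134043-142134062, chr7:142134498-142134517 and chr7:142135768-142135787.
H19 upstream site 1: atgCCGCGTGGTGGCAGtac
H19 upstream site 2: ctaCCGCGCGGTGGCAGcat
H19 upstream site 3: ttgCCGCGTGGTGGCAGcaa
Of the 5939 annotated gene starts on chromosome 7 with such a window, 0.0842% had a match. In sites 1 and 3, the first letters of the core and the bases before it also spell TGCCGC, the hexamer bound by ZFP57, a zinc finger protein that keeps imprints methylated. This hexamer, on either strand, was found in the 250 bases before the start of 4 of the 10 genes (H19, Meg3, Plagl1 and Mest), against 5.68% of 78287 annotated genes and 8.5% of 21770 protein-coding ones. For H19 these bases take in site 1, so the hexamer of that site is among the matches counted here.

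The first intron of Peg3 holds a control region in which repeated sites for the factor YY1 are known. The core of the YY1 motif, with any base allowed at the ninth letter, was searched on both strands within 5000 bases to either side of the Peg3 start and had 7 matches. All 7 lay in introns of Peg3 on the minus strand, the strand of the gene, between 870 and 3158 bases into it. The first, the middle and the last are shown, at chr7:6732584-6732602, chr7:6731446-6731464 and chr7:6730296-6730314, with the searched letters in capitals.
Peg3 intron site 1: agttGGCGCCATCTTggag
Peg3 intron site 4: atttGGCGCCATCTTtgcc
Peg3 intron site 7: cattGGCGCCATCTTtgtt
The letters in capitals were the same in all 3. Of the same 5939 starts, 1.62% had a match in such a window. A match is a run of letters and was not tested for binding.

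Both long noncoding RNAs of the group carry microRNAs in their transcripts, shown from RefSeq (the GRCm38.p6 table) with the seed (bases 2 to 8) in capitals, because these short products are not measured in poly(A) libraries. The H19 transcript holds miR-675. Exons of Meg3 hold miR-770 and, in the annotation, also Mir1906-1, whose sequence is not shown. The 4 arms of miR-675 and miR-770 have 4 different seeds.
mmu-miR-675-5p: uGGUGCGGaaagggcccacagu
mmu-miR-675-3p: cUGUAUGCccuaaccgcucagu
mmu-miR-770-5p: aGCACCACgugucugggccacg
mmu-miR-770-3p: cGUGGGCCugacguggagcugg

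**Figure D1:**
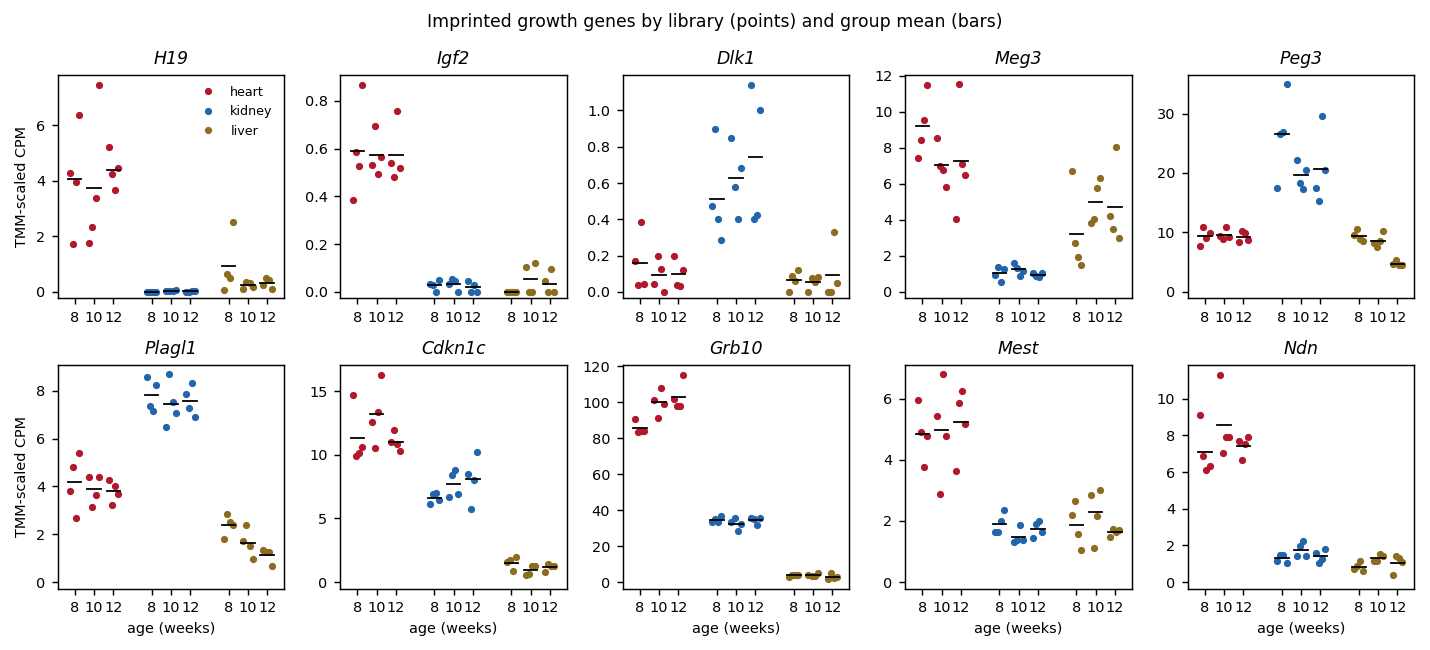
Level of each gene in TMM-scaled CPM (vertical axes, a scale for each gene) by tissue and age in weeks, with 1 point per library and a bar at the mean of the 4 libraries of a group. Peg3 in liver steps down at 12 weeks, to 4.51 to 5.33 CPM, and Grb10 in heart, at 83.6 to 115.2 CPM, stands above all its kidney and liver values.

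H19 and Igf2 lie side by side on chromosome 7 (GRCm39). Igf2, insulin-like growth factor 2, is the main fetal growth factor and is transcribed from the paternal copy. It spans 142204503 to 142220694 on the minus strand (ENSMUSG00000048583). H19 is a noncoding RNA transcribed from the maternal copy, at 142129262 to 142133957 on the same strand (ENSMUSG00000000031). The count of Igf2 is a floor for the gene: another annotated gene on the same strand, Gm49394, covers much of it, and only 34.5% of its exonic bases can be counted.

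Both genes were near 0 in kidney and highest in heart. H19 ranged from 1.73 to 7.45 CPM over the 12 heart libraries, with a median of 4.09 CPM. In kidney 7 H19 pairs were counted in 12 libraries together, a level of 0.0156 CPM with an exact 95% Poisson interval from 0.00626 to 0.0321 CPM, and the 4 kidney libraries of 8 weeks had none, which allows up to 0.0204 CPM for that group. The interval and this limit cover counting error only and hold for the count without strand. In the summed strand counts, replicates 2 and 3 of these 8-week kidneys held 1 and 2 H19 pairs. Heart and kidney did not overlap, and H19 in heart passed the test against kidney (adjusted p = 6.26e-16, edgeR, quasi-likelihood) and against liver (adjusted p = 8.42e-11).

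In liver H19 varied widely between libraries relative to its mean. At 8 weeks its levels were 0.0502, 0.656, 0.488 and 2.51 CPM, from 1, 15, 8 and 41 pairs. A single library thus held 41 of the 65 pairs of the group, and H19 passed the count filter in liver only through this age. At 10 weeks it lay between 0.104 and 0.344 CPM and at 12 weeks between 0.0969 and 0.48 CPM, so all ages overlapped. The log2 fold change at 12 against 8 weeks was -1.51 ± 0.77 (SE) with an adjusted p of 0.378.

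Igf2 was counted in every heart library, between 0.384 and 0.867 CPM with a median of 0.537 CPM. In kidney 12 pairs and in liver 8 pairs were counted over 12 libraries each, which gives 0.0267 CPM (Poisson interval 0.0138 to 0.0466) and 0.0318 CPM (0.0138 to 0.0627). All 4 liver libraries of 8 weeks had no pair, which allows up to 0.0397 CPM. No heart library overlapped a kidney or liver library, and Igf2 in heart passed the test against both (adjusted p = 1.31e-12 and 3.46e-11, edgeR). In the fit of all 36 libraries Igf2 passed the count filter through heart alone. These tests were thus run only because heart was high, and they add no separate support for this order. Kidney and liver could not be ordered (adjusted p = 0.348). In heart the means at 8, 10 and 12 weeks were 0.592 ± 0.202, 0.572 ± 0.0881 and 0.575 ± 0.125 CPM (n = 4 each).

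Dlk1 and Meg3 are the paternally and maternally transcribed neighbours of the cluster on chromosome 12. Dlk1 encodes a transmembrane protein related to the Notch ligands that marks precursor cells (ENSMUSG00000040856, 109418749 to 109429262 on the plus strand). Meg3 is a long noncoding RNA (ENSMUSG00000021268, 109506877 to 109538165 on the plus strand). Kidney held the highest level of Dlk1 and the lowest of Meg3.

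Dlk1 was lowest in liver and heart and highest in kidney. In kidney it ranged from 0.288 to 1.14 CPM with a median of 0.526 CPM, from 12 to 51 pairs a library. Heart libraries held 0 to 8 pairs and liver libraries 0 to 7, and Dlk1 was under the count filter in both tissues. Kidney was 3.06 ± 0.44 (log2 ± SE) above liver (adjusted p = 1.01e-07, edgeR) and heart against kidney was -2.50 ± 0.39 (adjusted p = 5.97e-07), although single libraries overlapped. In the fit of all 36 libraries Dlk1 passed the count filter through kidney alone, so these tests were run only because kidney was high. Heart and liver could not be ordered (adjusted p = 0.375). The kidney means at 8, 10 and 12 weeks were 0.514 ± 0.265, 0.627 ± 0.187 and 0.742 ± 0.384 CPM, and the log2 fold change at 12 against 8 weeks was 0.57 ± 0.41 (adjusted p = 0.632).

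Meg3 was lowest in kidney, from 0.567 to 1.60 CPM, and highest in heart, from 4.03 to 11.5 CPM. Liver lay between, from 1.47 to 8.05 CPM, and overlapped both. Heart exceeded kidney by 2.86 ± 0.21 on the log2 scale (adjusted p = 8.54e-15) and liver by 0.88 ± 0.19 (adjusted p = 7.96e-05), and the log2 fold change of kidney against liver was -1.99 ± 0.21 (adjusted p = 1.75e-10, edgeR). In liver its 4 values at 8 weeks were 6.73, 2.71, 1.95 and 1.47 CPM, those at 10 weeks 3.84, 4.05, 5.78 and 6.33 CPM, and those at 12 weeks 4.21, 3.51, 8.05 and 3.00 CPM. The libraries of 1 age spread as widely as those of different ages, and no comparison of ages passed the test in any tissue.

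Peg3 and Plagl1 encode zinc finger proteins that bind DNA and are transcribed from the paternal copy. Peg3 lies on chromosome 7 (ENSMUSG00000002265, 6706882 to 6733468 on the minus strand) and Plagl1, also called Zac1, on chromosome 10 (ENSMUSG00000019817, 12936248 to 13007438 on the plus strand). Both had the order kidney above heart above liver. Peg3 ranged from 15.3 to 35.03 CPM in kidney, 7.77 to 10.98 CPM in heart and 4.51 to 10.6 CPM in liver. Plagl1 ranged from 6.50 to 8.70 CPM in kidney, 2.69 to 5.41 CPM in heart and 0.679 to 2.84 CPM in liver. Kidney overlapped no other tissue for either gene.

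The log2 fold change of heart against kidney was -1.22 ± 0.09 for Peg3 (adjusted p = 6.37e-14) and -0.94 ± 0.11 for Plagl1 (adjusted p = 1.12e-09, edgeR). Kidney exceeded liver by 1.60 ± 0.10 for Peg3 (adjusted p = 1.1e-16) and by 2.21 ± 0.12 for Plagl1 (adjusted p = 4.9e-18). Over all ages heart exceeded liver by 0.38 ± 0.10 for Peg3 (adjusted p = 0.00088) and by 1.26 ± 0.12 for Plagl1 (adjusted p = 2.74e-11). For Peg3 this difference was not the same at every age: the means of heart and liver were 9.43 ± 1.34 and 9.43 ± 0.916 CPM at 8 weeks, and 9.29 ± 0.917 and 4.76 ± 0.384 CPM at 12 weeks.

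Cdkn1c and Grb10 restrain growth and are transcribed from the maternal copy in most organs. Cdkn1c encodes p57, an inhibitor of cyclin-dependent kinases (ENSMUSG00000037664, chromosome 7, 143012069 to 143014806 on the minus strand). Grb10 encodes an adaptor protein that dampens signalling from the insulin and IGF1 receptors (ENSMUSG00000020176, chromosome 11, 11880498 to 11988683 on the minus strand). Both followed the order heart above kidney above liver. In heart Grb10 had a median of 97.8 CPM and a range from 83.6 to 115.2 CPM. Kidney ranged from 28.5 to 36.6 CPM and liver from 1.60 to 5.24 CPM, so that no tissues overlapped. Grb10 in heart exceeded kidney by 1.504 ± 0.079 (adjusted p = 1.03e-18) and liver by 4.76 ± 0.10 on the log2 scale (adjusted p = 5.21e-31), and kidney exceeded liver by 3.26 ± 0.09 (adjusted p = 2.87e-26, edgeR).

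Cdkn1c ranged from 9.92 to 16.3 CPM in heart, 5.75 to 10.2 CPM in kidney and 0.571 to 1.96 CPM in liver. Liver stood below every library of the other tissues, while single heart and kidney libraries overlapped. Cdkn1c in kidney exceeded liver by 2.65 ± 0.13 (adjusted p = 9.87e-20) and in heart by 3.31 ± 0.13 (adjusted p = 9.7e-23). Heart exceeded kidney by 0.66 ± 0.10 (adjusted p = 4.17e-07, edgeR), but by 0.14 (adjusted p = 0.217) when libraries were scaled by their plain totals.

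Mest and Ndn are transcribed from the paternal copy. Mest encodes a protein with a hydrolase fold that is abundant in the embryo's mesoderm and in growing fat (ENSMUSG00000051855, chromosome 6, 30723546 to 30752058 on the plus strand). Ndn encodes necdin, a protein known from neurons that holds back cell division (ENSMUSG00000033585, chromosome 7, 61995473 to 62000010 on the plus strand). Both were highest in heart, Mest at 2.89 to 6.83 CPM and Ndn at 6.11 to 11.3 CPM. Kidney held 1.32 to 2.35 CPM of Mest and 1.03 to 2.22 CPM of Ndn, and liver 1.04 to 3.02 and 0.39 to 1.55 CPM. For Ndn heart overlapped neither kidney nor liver, whereas for Mest heart and liver shared part of their range.

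Ndn in heart exceeded kidney by 2.37 ± 0.13 (adjusted p = 3.45e-18) and liver by 2.88 ± 0.14 (adjusted p = 1.72e-19). Kidney exceeded liver by 0.51 ± 0.15 (adjusted p = 0.0025, edgeR). Mest in heart exceeded kidney by 1.56 ± 0.15 (adjusted p = 7.61e-12) and liver by 1.39 ± 0.15 (adjusted p = 2.73e-10). For Mest the order of kidney and liver was open, with a log2 fold change of -0.17 ± 0.16 (adjusted p = 0.306), and it turned with the scaling, to 0.61 (adjusted p = 0.000857) with plain totals. Kidney and liver libraries held 17 to 98 Mest pairs, and the lowest Ndn level, 0.39 CPM in a 12-week liver, came from 9 pairs.

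Counted over the group, 10 of the 10 genes differed between heart and kidney, 7 higher and 3 lower in heart. This is set against 86.1% of the 19716 genes tested between these tissues, 39% higher and 47.1% lower. Between heart and liver 9 genes passed, all higher in heart, against 84.2% of all genes and 42% in this direction. Between kidney and liver 8 passed, 6 higher and 2 lower in kidney, against 83.1%, 46% higher and 37% lower. Most genes differed between these organs, and the shares called in either direction are near the background. The share of all genes whose libraries did not overlap between tissues is not given here. A lack of overlap between tissues thus sets no gene of the group apart. By direction, the shares called higher in heart lay above those of all genes. The median log2 fold change of the 10 genes was 1.53 for heart against kidney, where that of all genes was -0.15, and 2.13 for heart against liver, where that of all genes was 0. Igf2 passed the count filter of this fit through heart alone and Dlk1 through kidney alone. Their part in these counts and medians follows from the filter and is no separate result. Scaling by TMM factors instead of plain totals moved all genes by 0.53 (heart against kidney), -0.27 (heart against liver) and -0.79 (kidney against liver) on the log2 scale. Besides Cdkn1c between heart and kidney and Mest between kidney and liver, no call or direction of the group between tissues changed with plain totals. The libraries of different tissues may come from the same mice, and this fit took them as separate.

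Levels of different genes can be compared only per length, as pairs per kilobase of countable exon in CPM units (RPKM). The length joins all annotated exons of a gene, in all 2155 bases for Cdkn1c and 19306 for Meg3. It may exceed that of the transcripts present, and the order between genes depends on it. The counting drops a pair that overlaps a gene on either strand, which takes pairs from Cdkn1c, Mest and H19, each of which has an overlapping gene on the other strand. Adding the counts of the separate strands, as an alternative chosen after the data were seen, gave 227.5% of the deposited unstranded count for Cdkn1c in heart, 196.2% for Mest and 145.4% for H19. Since the libraries do not keep strand, this sum also gives each gene the pairs of its overlapping neighbour where they share bases. For Mest this is Copg2, which had 10719 pairs over the liver libraries.
With these sums Cdkn1c stood first per length in every tissue, at 12.5 ± 2.11 RPKM in heart, 8.26 ± 1.04 in kidney and 1.21 ± 0.347 in liver (n = 12 each). Grb10 followed in heart at 9.38 ± 0.969 RPKM and in kidney at 3.30 ± 0.215 RPKM. With the unstranded counts the order at the top of heart was the other way round, Grb10 above Cdkn1c at a mean of 7.74 RPKM. In liver Mest, at 0.70 ± 0.156 RPKM, and Peg3, at 0.556 ± 0.166 RPKM, came after Cdkn1c and differed by less than their spread. With the unstranded counts Peg3 stood above Mest, which was then at 0.458 ± 0.155 RPKM. At the foot stood H19 and Igf2 in kidney (0.0108 and 0.0104 RPKM) and Dlk1 and Igf2 in liver (0.0118 and 0.0117 RPKM), pairs that the counts cannot order.

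**Figure D2:**
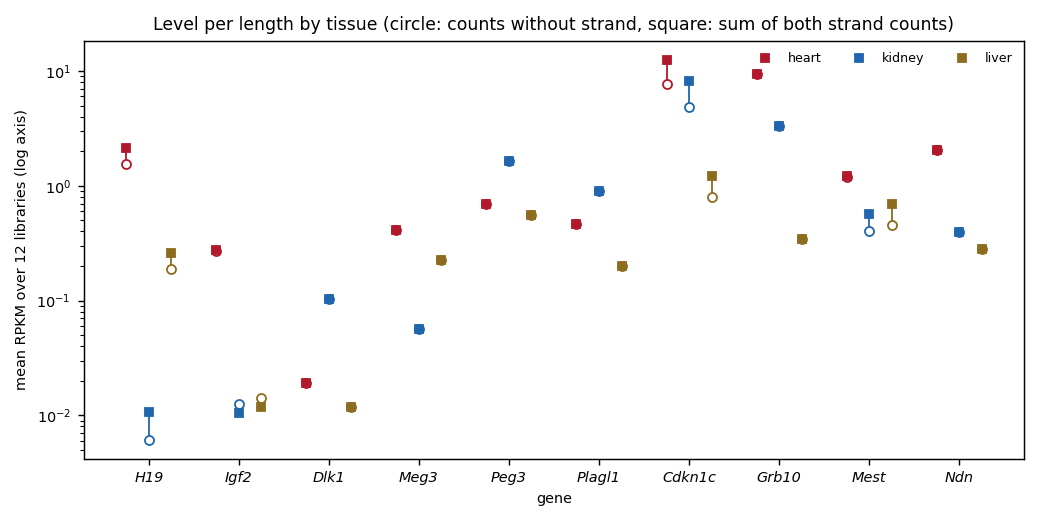
Mean level per length over the 12 libraries of each tissue, in RPKM on a logarithmic axis, for each gene. Circles use the counts without regard to strand over the exonic bases such a count can cover, squares the sum of both strand counts over the bases it can cover, and a line joins the values of 1 gene and tissue. Cdkn1c in heart moves from 7.74 to 12.5 RPKM.

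Between ages, 1 of the 10 genes passed the test, and in 1 tissue. This was Peg3, which fell in liver at 12 weeks. Its 4 values were 9.64, 10.6, 8.90 and 8.55 CPM at 8 weeks and 8.20, 7.60, 8.51 and 10.2 CPM at 10 weeks. They were 4.64, 5.33, 4.57 and 4.51 CPM at 12 weeks, from 93 to 111 pairs a library. The 12-week libraries lay below all others, and those of 8 and 10 weeks overlapped. Of all genes, 3.84% lay lower without overlap at 12 against 8 weeks and 4.72% at 12 against 10 weeks.

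Liver Peg3 at 12 weeks was 50.2% of its 8-week level, a log2 fold change of -0.99 ± 0.13 (adjusted p = 0.0105, edgeR, quasi-likelihood over 14672 genes). Against 10 weeks it was -0.86 ± 0.13 (adjusted p = 0.042), and between 8 and 10 weeks -0.14 ± 0.13 (adjusted p = 0.659). It was thus 1 of 8 genes of the group tested in liver at 12 against 8 weeks, where 0.239% of all genes passed and 0.0613% as lower, and 1 of 8 at 12 against 10 weeks, where 0.0545% passed and 0.0341% as lower. The call against 10 weeks was the weaker: it was lost in 9 of the 12 fits that leave out a library (adjusted p up to 0.122), with a replicate block (0.0704) and in a fit of 2 ages only (0.0542). The call against 8 weeks was lost without replicate 2 of the 8-week livers (adjusted p = 0.0597) and held in the other 11 such fits.

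Some marker lists of the liver's other cells had lower sums at 12 weeks, without a marker that passed the test, and some did not. All 6 endothelial markers and all 6 fibroblast markers had negative log2 fold changes at 12 against 8 weeks, with medians of -0.48 and -0.43. In edgeR, DESeq2 and limma-voom 0 of them passed (4 and 2 at an unadjusted p under 0.05). Endothelial markers summed to 98.0 to 159.2 CPM at 8 weeks, 158.2 to 172.5 CPM at 10 weeks and 69.8 to 100.6 CPM at 12 weeks. Fibroblast sums were 54.9 to 93.9, 60.8 to 97.7 and 45.8 to 66.5 CPM at the same ages. The mural and smooth muscle sums at 12 weeks, 49.9 to 62.6 CPM, lay below every younger liver. The lowest of these were 68.9 CPM at 8 weeks and 67.0 CPM at 10 weeks. Leukocyte sums were 22.2 to 43.9, 48.6 to 78.4 and 28.3 to 35.4 CPM, so that those of 12 weeks lay inside the range of 8 weeks. Schwann cell markers had a median sum of 2.46 CPM at 8 weeks and 2.67 CPM at 12 weeks, and adipocyte markers of 1.4 and 3.08 CPM. Hepatocyte markers summed to 119900 to 160000 CPM at 8 weeks and to 117500 to 150400 CPM at 12 weeks. The part of these cells in the level of Peg3 was not tested.

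**Figure D3:**
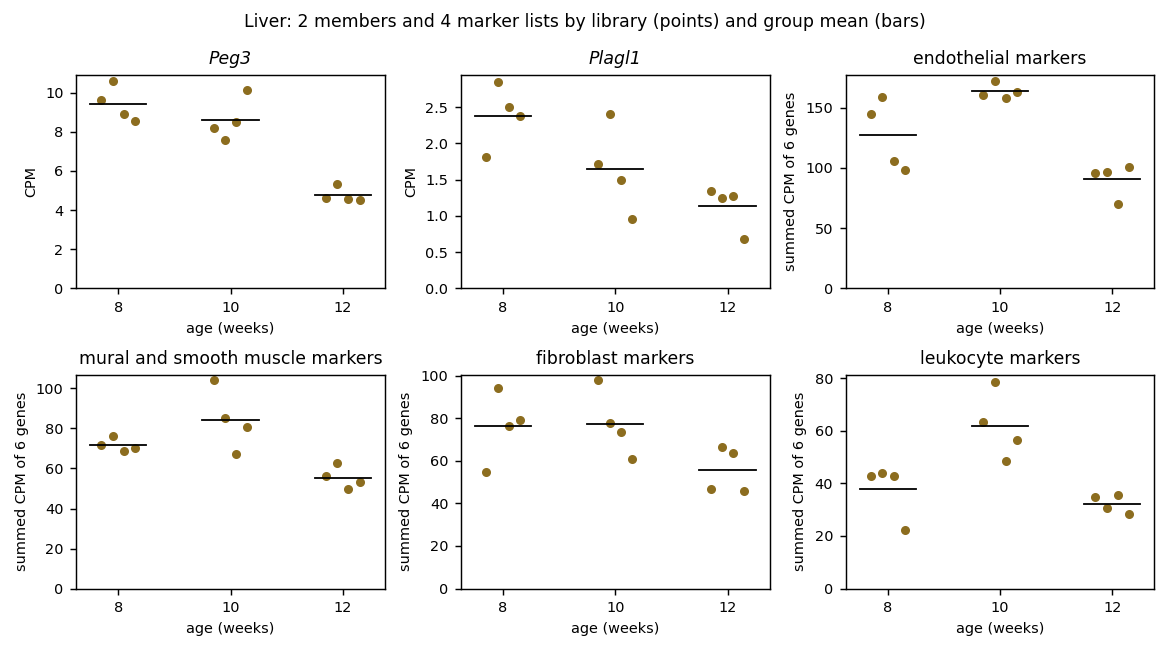
Liver only: levels of Peg3 and Plagl1 in CPM and summed levels of 4 lists of 6 marker genes in CPM (vertical axes, from 0), by age in weeks, with 1 point per library and a bar at the mean of 4. Peg3 at 12 weeks stands at 4.51 to 5.33 CPM, below every younger liver, and the endothelial sums at 12 weeks, 69.8 to 100.6 CPM, stand below all sums of 10 weeks.

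Plagl1 in liver went the same way without passing the test. Its values were 1.81, 2.84, 2.50 and 2.38 CPM at 8 weeks, 1.71, 2.41, 1.496 and 0.955 CPM at 10 weeks, and 1.34, 1.25, 1.27 and 0.679 CPM at 12 weeks. The livers of 8 and 12 weeks did not overlap, and those of 10 weeks covered part of both ranges. The log2 fold change at 12 against 8 weeks was -1.07 ± 0.30 with an adjusted p of 0.143 in edgeR and 0.0443 in DESeq2. Peg3 and Plagl1 were the 2 of 8 genes whose libraries of 8 and 12 weeks did not overlap, with 12 weeks lower, beside the 3.84% of all genes. The depth was low, with 14 to 31 Plagl1 pairs a library at 12 weeks.

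In heart 0 of the 9 genes tested passed in edgeR at 12 against 8 weeks (1 at an unadjusted p under 0.05, 1 in DESeq2, 0 in limma-voom). Of all genes 4.56% passed, and 23.4% had an unadjusted p under 0.05. The gene called by DESeq2 was Grb10. Its heart values were 90.5, 83.6, 84.2 and 83.9 CPM at 8 weeks, 101.1, 91.2, 108.2 and 99.0 CPM at 10 weeks, and 101.7, 98.0, 97.7 and 115.2 CPM at 12 weeks. All older hearts lay above all hearts of 8 weeks, as did 6.92% of all genes at 12 against 8 weeks and 5.05% at 10 against 8 weeks. The log2 fold change was 0.26 ± 0.07 (adjusted p = 0.0515 in edgeR and 0.0153 in DESeq2), and 0.22 ± 0.07 at 10 against 8 weeks (adjusted p = 0.155). The same fit called 2 of 6 cardiomyocyte markers (Myl2 and Ryr2) and 2 of 6 fibroblast markers (Pdgfra and Lum) higher at 12 weeks and 1 of 6 endothelial markers (Tie1, -0.26, adjusted p = 0.0362) lower, and their part in the level of Grb10 was not tested.

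At 10 against 8 weeks and at 12 against 10 weeks no gene of the group passed in heart in edgeR, DESeq2 or limma-voom, with 1 and 0 at an unadjusted p under 0.05. Of all genes 1.06% and 0.0396% were called, and 15.8% and 11.7% had an unadjusted p under 0.05. The log2 fold changes of the 9 genes at 12 against 8 weeks lay between -0.33 for Meg3 and 0.26 for Grb10. H19 differed several-fold between hearts of 1 age, at 4.27, 1.73, 3.94 and 6.36 CPM at 8 weeks and 1.76, 2.34, 3.37 and 7.45 CPM at 10 weeks. Its SE of 0.37 at 12 against 8 weeks leaves changes below the spread of these animals undetectable.

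In kidney 0 of the 8 genes tested passed at any comparison in edgeR, DESeq2 or limma-voom. The shares of all genes called were 0.0567% at 12 against 8 weeks, 0.929% at 10 against 8 weeks and 0.482% at 12 against 10 weeks. At an unadjusted p under 0.05 the counts were 0, 1 and 0, against 11.7%, 16.5% and 16.4% of all genes, the 1 being Ndn at 10 against 8 weeks (0.47 ± 0.22, adjusted p = 0.293). Peg3 in kidney was 17.5, 26.5, 26.8 and 35.03 CPM at 8 weeks, 22.1, 18.4, 17.3 and 20.5 CPM at 10 weeks and 17.5, 15.3, 29.6 and 20.5 CPM at 12 weeks. Its groups overlapped, and the log2 fold change at 10 against 8 weeks was -0.42 ± 0.20 (adjusted p = 0.32), and among the alternatives it was called where genes of low count were kept (-0.43, adjusted p = 0.00639). Grb10 was the steadiest, with 28.5 to 36.6 CPM over all 12 kidneys.

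In liver no gene passed at 10 against 8 weeks in edgeR, DESeq2 or limma-voom (2 at an unadjusted p under 0.05), where 0.0204% of all genes passed and 14.3% had an unadjusted p under 0.05. The 2 were Cdkn1c (-0.75 ± 0.33, adjusted p = 0.329) and H19 (-1.94 ± 0.80, adjusted p = 0.292), the latter kept by the filter in liver only through its high 8-week group, so that nothing is read from its sign. The ages overlapped for Cdkn1c, whose livers held 0.854 to 1.96 CPM at 8 weeks, 0.571 to 1.24 CPM at 10 weeks and 0.824 to 1.39 CPM at 12 weeks. At 12 against 8 weeks Meg3 (0.52 ± 0.44) and Ndn (0.30 ± 0.35) had positive log2 fold changes in liver and did not pass.

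**Figure D4:**
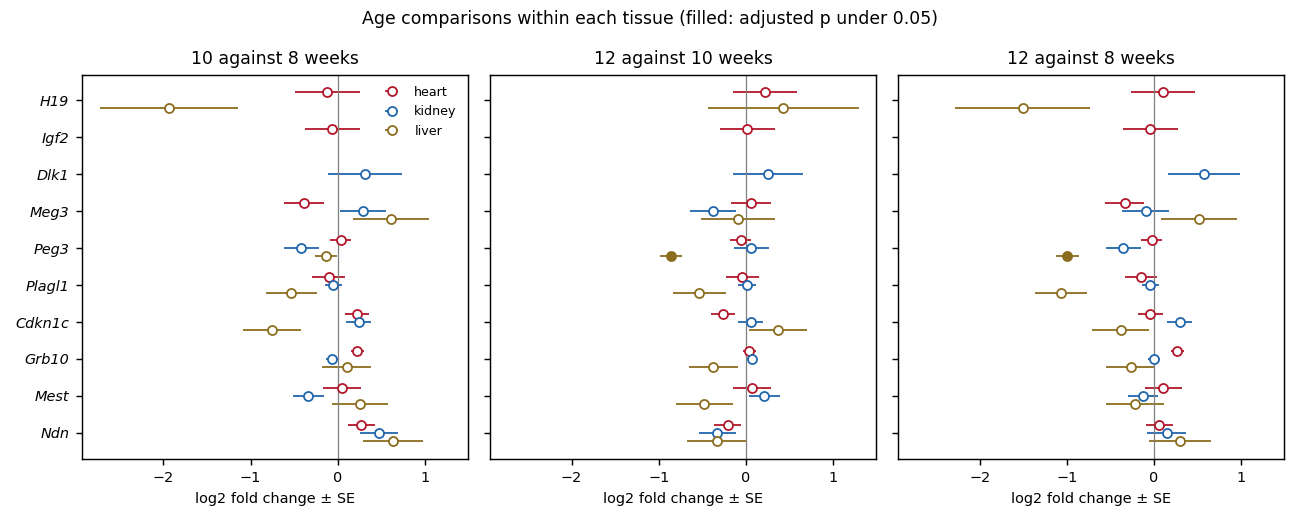
Log2 fold change with its SE (horizontal axes) for each gene in heart, kidney and liver at 10 against 8, 12 against 10 and 12 against 8 weeks. Filled symbols passed an adjusted p under 0.05 in edgeR and open ones did not, and genes under the count filter of a tissue have no symbol. The filled symbols are Peg3 in liver, at -0.86 and -0.99.

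Whether the change of Peg3 differed between tissues was tested as an interaction in a fit of all 36 libraries. The change at 12 against 8 weeks was 0.97 ± 0.25 higher in heart than in liver on the log2 scale (adjusted p = 0.0222, edgeR). Peg3 was the 1 of 10 genes that passed in this comparison, where 4.16% of all genes passed and 2.35% in this direction. The test was passed in neither limma-voom (adjusted p = 0.108) nor the fit without replicate 2 of the 12-week hearts, and DESeq2 called Plagl1 as well (0.94, adjusted p = 0.0288). Between kidney and liver the change of Peg3 differed by 0.63 ± 0.24 (adjusted p = 0.261), and no gene of the group passed in edgeR (3 at an unadjusted p under 0.05, 1 in DESeq2, 0 in limma-voom), against 0.304% of all genes called and 11.2% by the unadjusted p. Between heart and kidney no gene passed in any of these tools (0 at an unadjusted p under 0.05), against 0.112% of all genes called and 11.1% by the unadjusted p.

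Over the 12 libraries of a tissue, Pearson correlations of log2 CPM between pairs of kept genes were positive for 21 of 36 pairs in heart, 14 of 28 in kidney and 17 of 28 in liver. The highest was that of Cdkn1c and Ndn in kidney (r = 0.81, and 0.89 with the age means taken out). The lowest was that of Dlk1 and Mest in kidney (r = -0.78, and -0.87 with the age means taken out). These are descriptions over 12 libraries that share their scaling, and no p was computed for them. H19 and Igf2, which share a control region, had r = 0.052 in heart, and Dlk1 and Meg3, neighbours in a cluster, had r = 0.47 in kidney. In liver Peg3 and Plagl1 had r = 0.60 over all ages and -0.39 with the age means taken out.

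**Figure D5:**
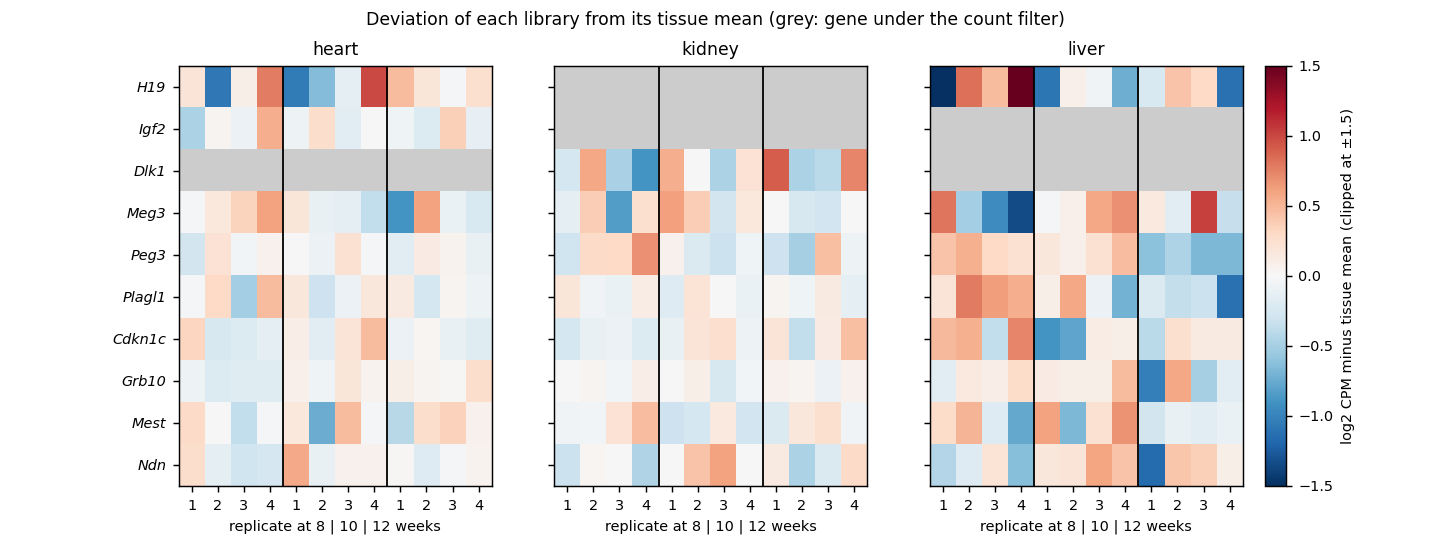
Log2 CPM of each library minus the mean of its tissue, as colour from blue (low) to red (high) clipped at 1.5 to either side, with genes in rows and the 4 replicates of 8, 10 and 12 weeks in columns. Grey rows are genes under the count filter. All 4 Peg3 fields of liver at 12 weeks are blue, and H19 in liver at 8 weeks holds both the deepest blue and the deepest red.

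Other genes whose libraries ordered most like a member were listed for the tissue of its highest median. Peg3 in kidney was most like Nfatc4 (r = 0.94), Zim1 (r = 0.92) and Acvr2a (r = 0.90) over 12 libraries among 17648 other genes. Zim1 is an imprinted gene next to Peg3, at 1.93 CPM in kidney. Meg3 in heart was most like Pabpn1 (r = 0.96), Grb10 in heart was most like Ccnd1 (r = 0.93) and Ndn in heart was most like Mmp14 (r = 0.94), among 15136 genes. Cdkn1c in heart stood nearest to Hmgn1 (r = 0.92), Mest to Ltbp2 (r = 0.91), H19 to Nme7 (r = 0.87) and Igf2 to Amd2 (r = 0.85). In kidney Dlk1 stood nearest to Ces2g (r = 0.90) and Plagl1 to Plcd1 (r = 0.88). The highest of so many correlations is high in any such table.

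Among 34 other imprinted genes, 23 were tested in heart at 12 against 8 weeks and 1 passed (6 at an unadjusted p under 0.05), a share near the 4.56% of all genes. This was Airn, the noncoding RNA that silences Igf2r on the paternal copy, which rose by 0.55 ± 0.15 on the log2 scale (adjusted p = 0.0475, edgeR) from 7.37 ± 1.07 to 10.8 ± 1.76 CPM. Igf2r, the receptor that clears IGF2, was 186.3 ± 23.3 CPM at 8 weeks and 221.3 ± 25.8 CPM at 12 weeks in heart and did not pass. In edgeR 0 of 24 passed in kidney and 0 of 18 in liver at these ages (6 and 2 at an unadjusted p under 0.05, 1 each in DESeq2, 0 in limma-voom). Zim1, beside Peg3, was 0.0377 ± 0.0753 CPM in liver at 8 weeks and 0.0472 ± 0.0686 CPM at 12 weeks, too few pairs to follow Peg3 there.

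Of 22 genes of the IGF axis, 17 were tested in heart and 1 passed at 12 against 8 weeks (6 at an unadjusted p under 0.05), again near the 4.56% of all genes. Irs2, a docking protein of the insulin and IGF1 receptors, fell by 1.02 on the log2 scale (adjusted p = 0.00148, edgeR), from 23.7 ± 5.32 to 11.7 ± 0.627 CPM. Igf1 itself was 827.5 ± 35 CPM in liver at 8 weeks and 799.2 ± 160.7 CPM at 12 weeks, and 0 genes of this axis passed there or in kidney at 12 against 8 weeks in edgeR, DESeq2 or limma-voom (5 and 3 at an unadjusted p under 0.05). Of the Notch pathway, Hes1, a target gene, rose in liver by 0.95 ± 0.14 (adjusted p = 0.0207) from 6.65 ± 0.332 to 12.9 ± 1.82 CPM. It was 1 of 11 tested there (5 at an unadjusted p under 0.05, 3 in DESeq2, 1 in limma-voom), where 0.239% of all genes passed. In heart and kidney 0 of 13 Notch genes passed in edgeR and limma-voom and 1 each in DESeq2 (4 and 2 at an unadjusted p under 0.05).

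Of 7 paralogs of the group, 5 were tested in heart and Cdkn1b, the p27 inhibitor, fell there by 0.37 on the log2 scale at 12 against 8 weeks (adjusted p = 0.027), from 55.2 ± 4.26 to 43.0 ± 3.56 CPM. Of 10 proliferation genes, 9 were tested in heart and Cenpf rose by 1.06 ± 0.21 (adjusted p = 0.0118). At an unadjusted p under 0.05 there were 2 of these 5 paralogs and 3 of these 9 genes, and 4.56% of all genes were called in this comparison. The 10 proliferation genes summed to 20.3 to 33.6 CPM in hearts of 8 weeks and 37.7 to 62.1 CPM at 12 weeks. Hearts of 10 weeks, at 23.8 to 42.6 CPM, overlapped both. In kidney and in liver the sums of 8 and 12 weeks overlapped. Of 10 genes that maintain imprints, among them Zfp57, Trim28 and Dnmt1, 0 passed at 12 against 8 weeks in heart, kidney or liver in edgeR, DESeq2 or limma-voom (1, 4 and 0 at an unadjusted p under 0.05). Of a list of Afp, Gpc3, Zhx2 and Zbtb20, 0 of the 3 or 4 tested in a tissue passed in these tools (2, 0 and 0 at an unadjusted p under 0.05). These genes are of mixed kind, and the count is not a measure of a fetal liver programme. Afp, the fetal albumin, was 2.29 ± 0.395 CPM in liver at 8 weeks and 2.72 ± 0.863 CPM at 12 weeks.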

How the data were processed

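Heart, kidney and liver RNA of 36 libraries was analysed. The authors checked reads with FastQC 0.11.9, trimmed them with cutadapt 4.2, aligned them to GRCm39 (Ensembl v113) with STAR 2.7.11b, and deposited unnormalized counts of read pairs per gene, without regard to strand and for each strand. STAR leaves out pairs that map to several places or overlap several genes, so overlapped genes lose pairs. The column without strand was used, since 49.8% to 50.2% of stranded counts fell on the first strand.

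Libraries were grouped by the tissue and age in their labels. Within a tissue, genes needed a count above 0 in 2 samples and a mean count of 10 in an age group, which kept 15137 heart, 17649 kidney and 14672 liver genes. TMM factors, a mean for each age and the quasi-likelihood test of edgeR 4.0.16 in R 4.3.3 followed, with Benjamini-Hochberg adjustment over all genes kept and a call at an adjusted p under 0.05. The common coefficient of variation between libraries was 0.118 (heart), 0.113 (kidney) and 0.206 (liver). Tissues and interactions were tested in 1 fit of 36 libraries with 9 group means (19716 genes). p-values set a difference against the spread of a gene between libraries within groups. This spread is estimated over all groups of a fit together and drawn towards that of other genes. In the fit of 36 libraries it is shared by tissues whose common coefficients of variation differ. The SE of an edgeR log2 fold change is an approximation, the absolute change divided by the square root of its quasi-likelihood F. Values of all 10 genes are given, the 3 most alike genes by Pearson correlation of log2 CPM (prior count of 2) were listed for each, and genes of other lists were named where they passed at 12 against 8 weeks. The genes, lists and tests were chosen with earlier results of these data known.

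Alternatives were DESeq2 1.42.0, limma-voom (limma 3.58.1), RLE factors, no filter, filterByExpr, 2 ages only, blocks by replicate or library number, single-strand counts and each library left out. Plain totals and the sum of both strand counts were added after the data were seen. The scripts were tested on simulated data. Positions come from GENCODE vM39 on GRCm39, which held 78168 of the 78239 identifiers.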

Additional observations from a re-analysis of the deposited data

Results flagged for a closer look

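In 8 of the 90 groups of 4 libraries and 1 gene, a library stood far from the other 3 by Dixon's test, whose 95% limit is passed by chance in about 1 group in 20. In the hearts of 8 weeks, replicate 1 was high in both Cdkn1c (14.7 CPM against 9.92 to 10.6 CPM) and Grb10 (90.5 CPM against 83.6 to 84.2 CPM). Grb10 was low in replicate 3 of the 12-week kidneys (31.6 CPM against 34.97 to 35.5 CPM) and high in replicate 4 of the 10-week livers (4.82 CPM against 3.59 to 3.73 CPM). In the livers of 12 weeks, Peg3 was high in replicate 2 (5.33 CPM against 4.51 to 4.64 CPM), which still lay below every younger liver. In the same group Plagl1 was low in replicate 4 (0.679 CPM against 1.25 to 1.34 CPM) and Dlk1 was high in replicate 3 (0.33 CPM against 0 to 0.0485 CPM), the latter from 7 pairs. Mest was high in replicate 3 of the 10-week kidneys (1.87 CPM against 1.32 to 1.38 CPM). The change of Peg3 at 12 against 8 weeks differed between heart and liver by 0.97 on the log2 scale (adjusted p = 0.0222, edgeR interaction).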

How the results depend on the processing

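Of the age comparisons, the fall of Peg3 in liver kept its direction under every alternative run. At 12 against 8 weeks it ranged from -1.14 to -0.87 (adjusted p from 3.13e-08 to 0.0459) over 11 alternatives, and from -1.04 to -0.94 (adjusted p from 0.0099 to 0.0597) with a library left out. At 12 against 10 weeks it was not called with counts of the first strand (-0.72, adjusted p = 0.105) or the second (-1.02, 0.0685), a replicate block (-0.86, 0.0704) or 2 ages only (-0.85, 0.0542), so that the count of genes called was 0. Over the alternatives it ranged from -1.02 to -0.72 (adjusted p from 1.17e-05 to 0.105), and from -0.91 to -0.77 (adjusted p from 0.0141 to 0.122) with a library left out. The number called at 12 against 8 weeks in heart was 1 in DESeq2 (Grb10, 0.26, adjusted p = 0.0153) and with plain totals (Grb10, 0.29, 0.0475), and at 10 against 8 weeks in kidney it was 1 without a count filter (Peg3, -0.43, 0.00639). At 12 against 8 weeks in liver it was 2 in DESeq2 (Peg3 and Plagl1, the latter -1.07, 0.0443). For the interaction of heart and liver it was 2 in DESeq2 (Peg3 and Plagl1, the latter 0.94, 0.0288) and 0 in limma-voom (Peg3 0.98, 0.108), and with counts of the first strand Peg3 was not called (0.88, 0.0609) while Grb10 was (0.73, 0.023). For kidney and liver it was 1 in DESeq2 (Plagl1, 1.02, 0.0278) and without a count filter (Plagl1, 1.04, 0.0372). With a library left out, these counts ranged from 0 to 1 in heart and liver at 12 against 8 weeks and in liver at 12 against 10 weeks, and from 0 to 2 for heart and liver. That last count was 0 without replicate 2 of the 12-week hearts. It was 2 without replicate 1 of the 8-week livers (Meg3 and Peg3) or replicate 2 of the 12-week livers (Grb10 and Peg3). The cause of these differences was not tested. Between tissues, the second strand left Ndn in kidney against liver uncalled (0.38, 0.0711) and plain totals did so for Cdkn1c in heart against kidney (0.14, 0.217), while Mest in kidney against liver was called with the first strand (-0.31, 0.0396), the sum of both strands (-0.27, 0.0439) and plain totals (0.61, 0.000857).

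Other values, of which 0 had passed in edgeR as reported, changed sign on the log2 scale under an alternative, where 12 v 8 stands for 12 against 8 weeks. With counts of the first strand, values were Mest -0.22, Peg3 0.023, H19 -0.10 (heart, 12 v 8), Mest -0.25 (heart, 10 v 8), Plagl1 0.028, Grb10 0.017, Meg3 0.35 (kidney, 12 v 8), Mest -0.076 (kidney, 12 v 10), Ndn -0.25 (liver, 12 v 8), H19 -0.12 and Meg3 0.076 (liver, 12 v 10), Mest -0.077 and Ndn 0.32 (interaction of heart against liver), Mest -0.084 and Ndn 0.39 (interaction of kidney against liver). With the sum of both strands, values were Mest -0.098 (heart, 12 v 8), Mest -0.12 (heart, 10 v 8), Igf2 -0.15 (heart, 12 v 10), Mest -0.0081 (kidney, 12 v 10), H19 0.57 (interaction of heart against kidney), Mest -0.086 (interaction of kidney against liver). With plain totals, values were Peg3 0.0056 (heart, 12 v 8), Plagl1 -0.027 (kidney, 12 v 10), Mest 0.61 (kidney against liver). With counts of the second strand, values were Peg3 -0.10 and H19 0.066 (heart, 10 v 8), Peg3 0.027, Igf2 -0.47, Meg3 -0.023 (heart, 12 v 10), Cdkn1c -0.042 (kidney, 12 v 8), Meg3 -0.21 (kidney, 10 v 8), Cdkn1c -0.076 and Plagl1 -0.071 (kidney, 12 v 10), Cdkn1c -0.28 and Ndn 0.13 (liver, 12 v 10), Dlk1 -0.16 (heart against liver), H19 1.39, Plagl1 0.074, Meg3 0.060 (interaction of heart against kidney), Mest -0.092 (interaction of kidney against liver). Without a count filter, values were Igf2 -0.00090 (heart, 12 v 10). In limma-voom, values were Meg3 -0.0057 (heart, 12 v 10), Igf2 -0.30 (kidney against liver). With a replicate block, values were Meg3 -0.0015 (heart, 12 v 10). In DESeq2, values were Igf2 -0.012 (kidney against liver). With a library left out, ranges that crossed 0 were Mest -0.0016 to 0.23, Peg3 -0.11 to 0.055, Cdkn1c -0.10 to 0.11, Ndn -0.00021 to 0.20, Igf2 -0.23 to 0.20, H19 -0.16 to 0.41 (heart, 12 v 8), Mest -0.15 to 0.22, Peg3 -0.050 to 0.11, Igf2 -0.22 to 0.18, H19 -0.70 to 0.19, Plagl1 -0.26 to 0.042 (heart, 10 v 8), Mest -0.12 to 0.26, Peg3 -0.11 to 0.021, Igf2 -0.17 to 0.12, H19 -0.018 to 0.80, Plagl1 -0.13 to 0.027, Grb10 -0.015 to 0.091, Meg3 -0.26 to 0.23 (heart, 12 v 10), Plagl1 -0.089 to 0.0075, Grb10 -0.026 to 0.031, Meg3 -0.31 to 0.070 (kidney, 12 v 8), Plagl1 -0.13 to 0.0027 (kidney, 10 v 8), Peg3 -0.16 to 0.18, Cdkn1c -0.074 to 0.18, Plagl1 -0.044 to 0.089, Dlk1 -0.038 to 0.46 (kidney, 12 v 10), Grb10 -0.0037 to 0.17 (liver, 10 v 8), Meg3 -0.48 to 0.066 (liver, 12 v 10), Ndn -0.20 to 0.070, Igf2 -0.044 to 1.18, Plagl1 -0.25 to 0.051 (interaction of heart against kidney), Dlk1 -1.68 to 1.12 (interaction of heart against liver), Mest -0.14 to 0.28, Ndn -0.45 to 0.0057, Dlk1 -0.34 to 2.38 (interaction of kidney against liver).

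Library numbers were not taken as pairs. Between tissues of an age, the own number was the best match among 4 libraries in 28 of 36 cases, where 1 in 4 would match by chance. The correlations of deviations from the group means were small, with 4 of 36 above 0.1 (median 0.0545). This is a hint from the data, and not from the design, that equal numbers share a mouse. The tests between tissues and of interactions took such libraries as separate. Between ages of a tissue, 2 of 36 pairs were above 0.1 and the own number was best in 8 of 36. A replicate block changed the count in liver at 12 against 10 weeks from 1 to 0 and no other count of calls. Levels near 0 rest on few read pairs: Dlk1 in heart and liver, Igf2 in kidney and liver and H19 in kidney were below the count filter, so their changes with age were not tested within these tissues.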
